A study of Mus musculus with 13 samples.

Results

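The tumour necrosis factor (TNF) ligands and receptors of lymphocytes were followed in a mouse pre-B cell line given the transcription factor Ikaros. The group held 10 genes, chosen with earlier results of these data known. They were the ligands Ltb, Lta, Tnf and Tnfsf11, and the receptors Tnfrsf1a, Tnfrsf1b, Tnfrsf13c, Cd40, Cd27 and Ltbr. Every probe set annotated to one of these symbols was taken, which gave 14 of 45101 probe sets on the Affymetrix 430 2.0 array and 10 of 35556 on the Gene 1.0 ST array. All 10 genes had a probe set on each array type.

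TNF ligands are made mostly as trimers on the cell surface, and their receptors pass the signal on through TRAF adaptors or death-domain proteins, largely to the NF-kB transcription factors. Lymphotoxin alpha and lymphotoxin beta form a membrane heterotrimer that binds the lymphotoxin beta receptor on stromal cells and is needed to build lymph nodes and splenic follicles, and B cells are one of its main sources. CD40 and the BAFF receptor carry survival and activation signals in mature B cells, while TNF and its receptors act in most leukocytes.

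The cells were the B3 line, cultured pre-B cells that were infected with MSCV retroviral vectors, each of which also carries GFP behind an internal ribosome entry site. On the 430 2.0 array, HA-tagged wild-type Ikaros (2 arrays) was set against 159A (2 arrays), an HA-tagged Ikaros mutant deficient in DNA binding, 48 h after infection. These were the only groups on this array type, with no vector or uninfected cells. A rise or fall at 48 h is thus relative to 159A, and which of the groups moved cannot be told. On the Gene 1.0 ST array, cells carrying Ikaros-ERt2, HA-tagged Ikaros fused to the hormone-binding domain of the estrogen receptor, were exposed to 4-hydroxytamoxifen for 2 h (3 arrays) or 6 h (3 arrays). They were set against vector-ERt2 cells, which carry ERt2 without Ikaros and were exposed to the same drug for 6 h (3 arrays). All groups on this array thus received the drug, no vector sample had 2 h of exposure, and no group of Ikaros-ERt2 cells without the drug was analysed here. Only 1 cell line was used, expression was driven by a retrovirus, and the labels do not state that GFP-positive cells were sorted.

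The deposited values are log2 values, so 1 unit is a doubling, and each change below is a difference of group means with its standard error (SE) from limma fitted to all tested genes of the array type. A change was called where the Benjamini-Hochberg adjusted p was under 0.05. The titles speak of biological replicates, but no label says that these were separate cultures, so the p-values reflect the spread among these samples alone. Precision is limited by how few arrays there are. Because bulk RNA was measured, fewer cells with a transcript and less of it per cell cannot be told apart.

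For the 430 2.0 arrays, 36.7% of all values lay within 0.01 of the lowest value, 2.19, and a mean within 1 unit of it (under 3.19) is treated as near this floor and gives only a bound on a fold. Ikzf1, which encodes Ikaros, stood at 13.22 to 13.40 in Ikaros-ERt2 cells at 2 h, 13.22 to 13.31 at 6 h and only 9.16 to 9.39 in the vector-ERt2 group. For vector-ERt2 replicate 1, one label names inducible Ikaros although the title gives the vector; its Ikzf1 level of 9.16 lay with the other vector-ERt2 arrays. At 48 h, Ikzf1 probe set 1421303_at averaged 12.04 with Ikaros and 11.71 with 159A, which is itself an Ikaros protein. Another, 1436312_at, read 4.11 and 4.77 with Ikaros, against 12.83 and 12.73 with 159A. On the 430 2.0 type the Pearson r was 0.988 to 0.995 between arrays of 1 group and 0.965 to 0.972 between groups. On Gene 1.0 ST it was 0.9946 to 0.9979 within groups and 0.9938 to 0.9966 between groups, so these ranges overlapped.

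The promoter windows of 5 members are shown because the measured differences turn on them. Ltb rose with Ikaros at 48 h, and Tnfsf11 and Tnfrsf1b fell. After drug exposure, Lta was lower in Ikaros-ERt2 than in vector-ERt2 cells. Tnf lies between Ltb and Lta on chromosome 17. Each window runs 5′ to 3′ on the strand of the gene, from 250 bases before the gene's start to 50 after it, and comes from RefSeq on mouse build GRCm38.p6. Capitals mark GGGAA or its reverse complement TTCCC, the core of the sequence that Ikaros is known to bind.
Ltb (chr17:35194257-35194556, plus strand): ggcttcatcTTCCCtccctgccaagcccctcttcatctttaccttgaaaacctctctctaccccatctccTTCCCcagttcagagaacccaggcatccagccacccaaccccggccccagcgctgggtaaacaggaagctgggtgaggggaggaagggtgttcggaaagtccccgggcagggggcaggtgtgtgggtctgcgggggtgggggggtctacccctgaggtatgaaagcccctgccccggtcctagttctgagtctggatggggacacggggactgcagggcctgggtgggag
Lta (chr17:35205302-35205601, minus strand): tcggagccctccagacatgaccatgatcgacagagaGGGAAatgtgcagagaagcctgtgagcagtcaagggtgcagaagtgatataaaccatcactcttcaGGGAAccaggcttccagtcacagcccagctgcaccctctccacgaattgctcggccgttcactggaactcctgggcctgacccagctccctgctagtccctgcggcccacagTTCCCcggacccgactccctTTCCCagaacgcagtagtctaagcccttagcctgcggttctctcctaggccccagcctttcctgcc
Tnf (chr17:35201958-35202257, minus strand): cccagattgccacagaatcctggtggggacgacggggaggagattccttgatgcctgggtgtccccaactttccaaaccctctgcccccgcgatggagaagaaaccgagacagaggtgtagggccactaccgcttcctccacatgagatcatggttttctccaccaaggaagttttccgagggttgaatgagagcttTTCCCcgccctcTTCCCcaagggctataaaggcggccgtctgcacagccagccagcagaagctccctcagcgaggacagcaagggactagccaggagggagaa
Tnfsf11 (chr14:78307994-78308293, minus strand): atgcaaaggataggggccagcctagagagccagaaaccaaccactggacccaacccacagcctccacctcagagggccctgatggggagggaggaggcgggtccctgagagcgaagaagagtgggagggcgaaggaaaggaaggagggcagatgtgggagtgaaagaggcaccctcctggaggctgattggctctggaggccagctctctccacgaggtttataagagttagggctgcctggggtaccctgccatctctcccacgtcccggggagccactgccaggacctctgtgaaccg
Tnfrsf1b (chr4:145246821-145247120, minus strand): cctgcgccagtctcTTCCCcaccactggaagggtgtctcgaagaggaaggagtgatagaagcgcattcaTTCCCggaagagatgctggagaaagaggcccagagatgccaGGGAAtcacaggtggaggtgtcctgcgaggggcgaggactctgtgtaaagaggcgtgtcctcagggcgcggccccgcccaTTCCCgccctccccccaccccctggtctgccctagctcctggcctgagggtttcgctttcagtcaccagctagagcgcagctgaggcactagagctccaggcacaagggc

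In these windows GGGAA, read on both strands, occurred 2 times for Ltb, 4 for Lta, 2 for Tnf, 4 for Tnfrsf1b and 0 for Tnfsf11. A window was given for 9 members, and 6 of the 9 held the motif, beside 62.7% of all 32851 promoter windows of this length in the table. A looser NF-kB pattern (GGG, any 5 bases, then CC), also read on both strands, occurred in 9 of the 9 windows and in 50.8% of all windows, and none of its matches in the members overlapped GGGAA. Among the genes that moved at 48 h, Ltb held 4 matches of this pattern, Tnfrsf1b 3 and Tnfsf11 2. A match describes the letters of the window and is no evidence of binding.

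At 48 h after infection, Ltb was the 1 member called higher with Ikaros than with 159A, and Tnfsf11 and Tnfrsf1b were the 2 called lower. Among all 10916 genes tested in this comparison, 14.8% were called, 6.38% higher and 8.47% lower. Of the 10 members, 9 passed the filter on low values and were tested. Tnfsf11 passed only through its level with 159A. The median change of these 9 was -0.16, beside 0 for all tested genes, and is a description. This median was the change of Cd27, which lay near the floor in both groups (means 2.45 with Ikaros and 2.62 with 159A). The filter level of 2.38 on this array type lay below the near-floor limit. Tnfrsf1a, Cd40 and Cd27 were thus tested although near the floor in both groups.

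Ltb, which encodes the membrane anchor of the lymphotoxin heterotrimer, read 10.77 and 10.36 on the Ikaros arrays, against 5.48 and 5.89 on the 159A arrays. Every Ikaros array was thus far above every 159A array, and replicates differed by less than 1 unit. The means were 10.56 ± 0.29 with Ikaros and 5.69 ± 0.29 with 159A (SD, n = 2 each), a change of 4.88 ± 0.25 (SE; 95% confidence interval 4.05 to 5.71), or 29.4-fold (limma, adjusted p = 0.0206). Neither group was near the floor.

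Lta encodes lymphotoxin alpha, the partner of Ltb in the heterotrimer, which is also secreted as a homotrimer. It read 6.25 and 6.00 on the Ikaros arrays, against 5.55 and 6.22 on the 159A arrays. The groups overlapped, and the change of 0.24 had an interval of -0.78 to 1.26 (limma, adjusted p = 0.651). A change of the size seen for Ltb lay outside that interval.

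Tnf, the gene of the inflammatory cytokine TNF, read 4.56 and 4.56 on the Ikaros arrays, against 5.23 and 6.23 on the 159A arrays. Both Ikaros arrays were below both 159A arrays, yet the 159A replicates stood nearly as far from each other. The change of -1.17 had an interval of -2.58 to 0.24 and missed the threshold (limma, adjusted p = 0.197). It was -1.67 without 159A replicate 1 and -0.67 without 159A replicate 2.

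Tnfsf11 encodes RANKL, a ligand known for driving osteoclast formation and lymph node development. Its probe set 1419083_at read 2.19 and 2.19 on the Ikaros arrays, against 5.55 and 5.60 on the 159A arrays. The Ikaros arrays lay at the lowest value of the array, so the gene was at least 5.23-fold lower with Ikaros, from a measured change of -3.39 ± 0.06 (SE; limma, adjusted p = 0.0153). The Ikaros arrays did not vary at the floor, so the gene's own spread came from the 159A arrays alone (SD 0.03), and limma moderates it towards the spread of all genes: Tnfrsf1a, with no spread in either group, had an SE of 0.05 in the same fit. With all values under 3.19 raised to it, an alternative chosen after seeing the data, the adjusted p was 0.0117. The other Tnfsf11 probe set, 1451944_a_at, read 2.24 on all 4 arrays, so the fall rests on 1 of its 2 probe sets, and the mean over both changed by -1.69 (adjusted p = 0.0159).

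**Figure D1:**
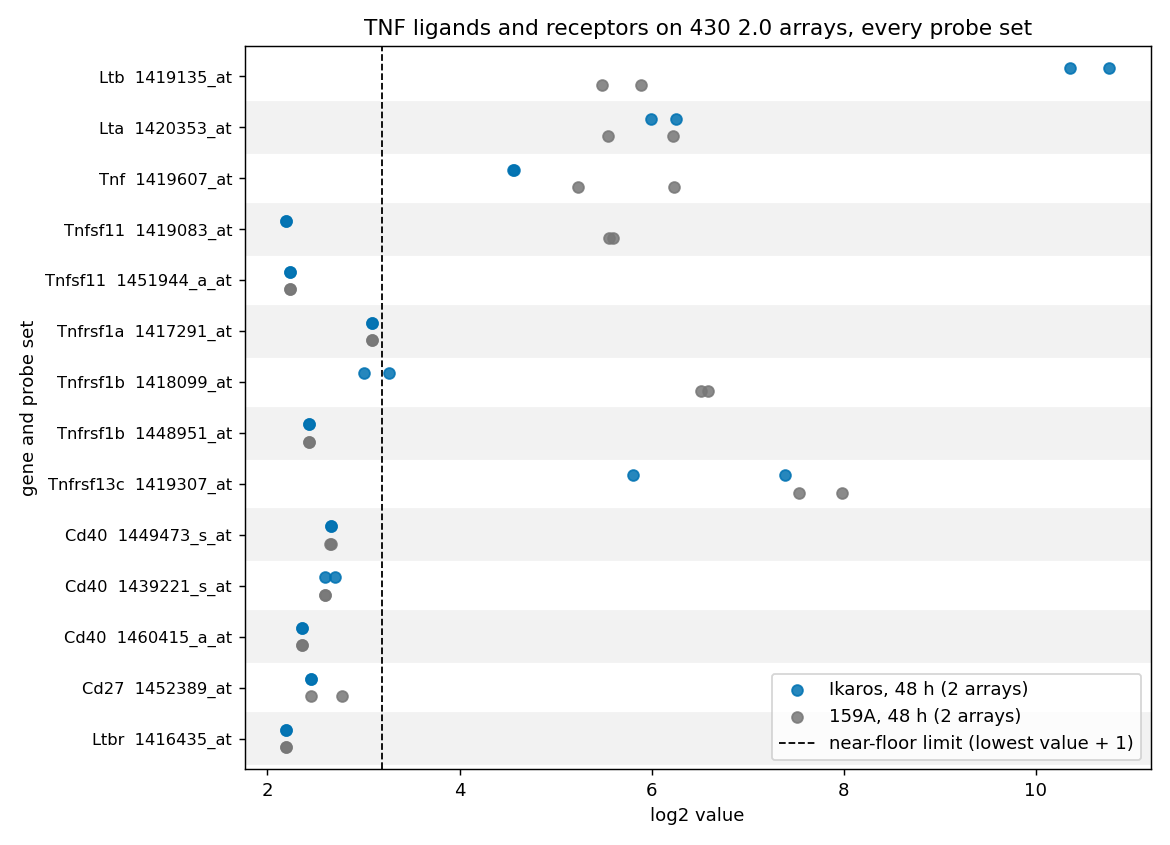
The log2 value of every probe set of the 10 genes on the 4 arrays taken 48 h after infection, 1 point per array, Ikaros in blue above 159A in grey; the dashed line marks the near-floor limit of 3.19. Ltb stands to the right with Ikaros (10.36 and 10.77), 1 probe set each of Tnfsf11 and Tnfrsf1b stands to the left, and all probe sets of Tnfrsf1a, Cd40, Cd27 and Ltbr lie under the limit on all arrays.

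Tnfrsf1b, which encodes TNF receptor 2, was the receptor that fell. Its probe set 1418099_at read 3.00 and 3.27 on the Ikaros arrays, against 6.51 and 6.59 on the 159A arrays. The groups were clearly apart, with the Ikaros mean near the floor: the gene was at least 9.98-fold lower with Ikaros, from a measured change of -3.41 ± 0.13 (SE; limma, adjusted p = 0.018). Its other probe set, 1448951_at, read 2.43 on all 4 arrays, and the mean over both changed by -1.71 (limma, adjusted p = 0.0182).

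Tnfrsf13c, the gene of the BAFF receptor that keeps maturing B cells alive, read 7.39 and 5.81 on the Ikaros arrays, against 7.99 and 7.53 on the 159A arrays. Both Ikaros arrays were below both 159A arrays, but the Ikaros replicates stood further apart (6.60 ± 1.12) than the 159A replicates (7.76 ± 0.32; SD, n = 2 each). The change of -1.16 had an interval of -3.47 to 1.15 and missed the threshold (limma, adjusted p = 0.382). It was -1.95 without Ikaros replicate 1 and -0.37 without Ikaros replicate 2. Counting Ltb above and Tnf, Tnfsf11, Tnfrsf1b and Tnfrsf13c below, the arrays of the groups did not overlap for 1 member that was higher and 4 that were lower, beside 27.7% and 30% of all tested genes.

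The remaining 4 receptors gave no level above the near-floor limit on any array at 48 h. Tnfrsf1a, the death-domain TNF receptor found on most cells, read 3.09 on all 4 arrays. The 3 probe sets of Cd40, the receptor for T-cell help, lay between 2.36 and 2.70. Cd27, a co-stimulatory receptor of lymphocytes, read 2.45 and 2.45 on the Ikaros arrays, against 2.78 and 2.45 on the 159A arrays. Ltbr, the receptor for the lymphotoxin heterotrimer that is known mainly from stromal and myeloid cells, read 2.19 on all 4 arrays and was not tested. No fold is given for these genes. Of the 14 member probe sets, 8 were under the limit on all 4 arrays and 6 of the 14 were equal on all 4 within 0.01.

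With 2 arrays a group the calls at 48 h have little margin. Leaving out any 1 of the 4 arrays left 0 genes of the whole table called, members and other genes named here alike, while 2165 to 3668 had an unadjusted p under 0.05; the changes of Ltb then ranged over 4.67 to 5.08, of Tnfsf11 over -3.41 to -3.36 and of Tnfrsf1b over -3.55 to -3.28, with adjusted p-values from 0.0807 to 0.199. Without the filter on low genes Tnfsf11 was called (adjusted p = 0.0126), while Ltb (adjusted p = 0.0662) and Tnfrsf1b (adjusted p = 0.051) missed the threshold. Of the NF-kB, TNF family and neighbouring genes named below as called at 48 h, Fadd kept its call without the filter (adjusted p = 0.0258), and Vamp1, Nop2, Gapdh, Nfkbia, Nfkbiz, Eda2r, Tnfrsf19, Tnip1 and Cyld missed the threshold (limma, adjusted p = 0.0658 to 0.13).

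In the hours after drug exposure, every tested member had a measured change of less than 1 log2 unit. At 2 h, 1.86% of all 11963 tested genes were called, 0.769% higher and 1.1% lower. Lta was the 1 member called, and it was lower in Ikaros-ERt2 than in vector-ERt2 cells. It was also the 1 member called at 6 h, where 5.78% were called, 2.58% higher and 3.2% lower. Of the 10 members, 8 were tested on this array type. Their median change was -0.17 at 2 h and -0.02 at 6 h, beside -0.01 and -0.00 for all tested genes. Both comparisons use the same 3 vector-ERt2 arrays, so they are not independent of each other.

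Lta read 6.33, 6.54 and 6.31 in Ikaros-ERt2 cells at 2 h, 6.63, 6.84 and 6.74 at 6 h, and 7.41, 7.25 and 6.94 in vector-ERt2 cells. All 6 Ikaros-ERt2 arrays were below all 3 vector-ERt2 arrays, and the 2 h arrays were all below the 6 h arrays. At 2 h the change was -0.81 ± 0.12 (SE; 95% confidence interval -1.06 to -0.55), or 1.75-fold lower than in vector-ERt2 cells (limma, adjusted p = 0.00646). At 6 h it was -0.46 ± 0.12 (interval -0.72 to -0.20), or 1.38-fold lower (limma, adjusted p = 0.0432). The 6 h values were higher than the 2 h values by 0.35 without passing the threshold (limma, adjusted p = 0.212). Whether Lta was already lower before the drug was not tested.

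The difference of Lta from vector-ERt2 cells at 2 h was called in 18 of 18 alternatives (change -0.94 to -0.70, limma adjusted p 0.00478 to 0.0439). At 6 h it was called in 8 of 18 (change -0.59 to -0.35, adjusted p 0.0158 to 0.176). The 6 h call was lost without Ikaros-ERt2 2 h replicate 1 (0.0659) or 3 (0.0582), without Ikaros-ERt2 6 h replicate 1 (0.168), 2 (0.0571) or 3 (0.0882), and without vector-ERt2 replicate 1 (0.176) or 2 (0.147), each value being the limma adjusted p. Without vector-ERt2 replicate 1, the sample with conflicting labels, the change was -0.70 at 2 h (adjusted p = 0.0323) and -0.35 at 6 h.

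Ltb read 6.09, 6.36 and 5.97 in Ikaros-ERt2 cells at 2 h, 6.51, 6.58 and 6.84 at 6 h, and 6.36, 6.32 and 6.36 in vector-ERt2 cells. At 2 h the groups overlapped, and at 6 h every Ikaros-ERt2 array was above every vector-ERt2 array. The change was -0.20 at 2 h (interval -0.44 to 0.04; limma, adjusted p = 0.45) and 0.30 ± 0.11 (SE) at 6 h (interval 0.06 to 0.54; limma, adjusted p = 0.154), so neither was called. Between 6 h and 2 h of exposure, the difference was 0.51 ± 0.11 (SE) with no overlap between the arrays (limma, adjusted p = 0.0653), and it passed the threshold in 1 of 18 alternatives, without Ikaros-ERt2 2 h replicate 2 (0.62, adjusted p = 0.0483). In that comparison 0 of the 8 tested members were called, beside 0.903% of all tested genes, 0.376% higher and 0.527% lower. The arrays did not overlap for 2 members that were higher at 6 h (Ltb and Lta) and 0 that were lower, beside 7.9% and 6.91% of all tested genes, and the members' median was 0.12.

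Tnf read 7.63, 8.04 and 7.76 in Ikaros-ERt2 cells at 2 h, 8.01, 8.27 and 8.41 at 6 h, and 8.41, 8.40 and 8.12 in vector-ERt2 cells. The 2 h arrays were all below the vector-ERt2 arrays, and the 6 h arrays overlapped them. The change at 2 h was -0.50 ± 0.13 (SE; interval -0.79 to -0.21) and missed the threshold (limma, adjusted p = 0.0921); at 6 h it was -0.08 (adjusted p = 0.85).

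Tnfsf11, which fell at 48 h on the other array type, read 7.18, 7.55 and 7.05 in Ikaros-ERt2 cells at 2 h, 7.22, 7.17 and 7.64 at 6 h, and 7.23, 7.22 and 7.20 in vector-ERt2 cells. The groups overlapped at both times. The change was 0.04 at 2 h (interval -0.27 to 0.35; limma, adjusted p = 0.942) and 0.13 at 6 h (interval -0.18 to 0.44; limma, adjusted p = 0.741). The array types were normalized separately, so these levels are not set against those at 48 h.

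**Figure D2:**
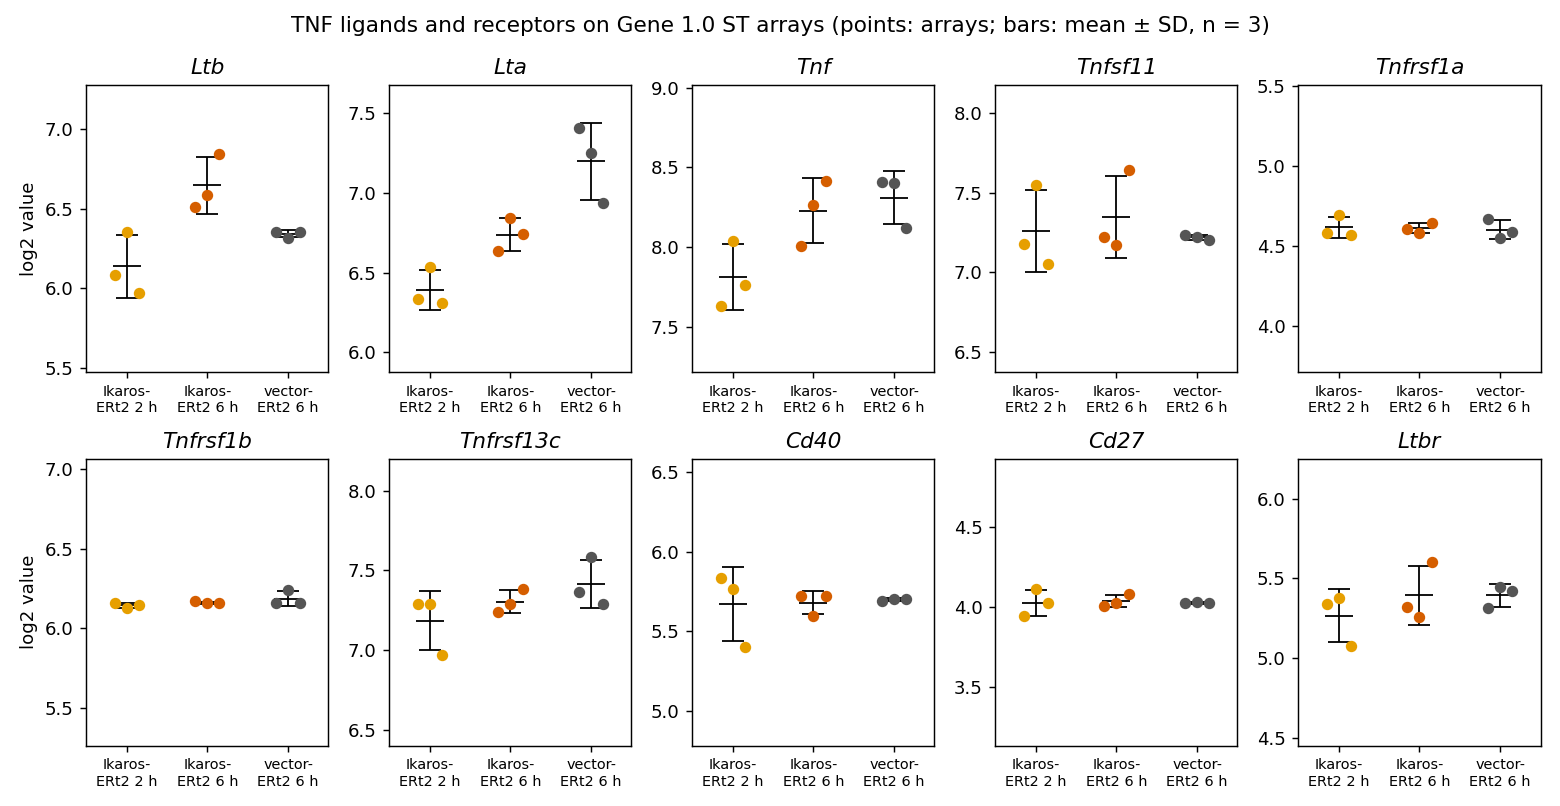
The log2 values of the 10 genes on the Gene 1.0 ST arrays, with 1 point per array, bars for the mean ± SD (n = 3) and the same span of values in every panel. All Ikaros-ERt2 arrays of Lta lie below the vector-ERt2 arrays, Ltb lies above them at 6 h, and none of the receptors was called.

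None of the 6 receptors was called at 2 h or 6 h, and the intervals of the 4 that were tested allowed changes of at most 0.46 in size. Tnfrsf1b read 6.16, 6.12 and 6.15 in Ikaros-ERt2 cells at 2 h, 6.17, 6.16 and 6.16 at 6 h, and 6.16, 6.24 and 6.16 in vector-ERt2 cells. Its changes of -0.04 at 2 h (interval -0.18 to 0.09; limma, adjusted p = 0.834) and -0.02 at 6 h (interval -0.16 to 0.11; limma, adjusted p = 0.906) did not pass the threshold, although at 2 h the arrays did not overlap. Tnfrsf13c read 7.29, 7.29 and 6.97 in Ikaros-ERt2 cells at 2 h, 7.24, 7.29 and 7.38 at 6 h, and 7.36, 7.58 and 7.29 in vector-ERt2 cells, with changes of -0.23 (interval -0.46 to 0.00; adjusted p = 0.363) and -0.11 (adjusted p = 0.702).

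Cd40 read 5.84, 5.77 and 5.41 in Ikaros-ERt2 cells at 2 h, 5.72, 5.60 and 5.72 at 6 h, and 5.69, 5.71 and 5.71 in vector-ERt2 cells. Its groups overlapped, with changes of -0.03 at 2 h and -0.02 at 6 h (limma, adjusted p = 0.943 and 0.963). Ltbr changed by -0.13 at 2 h and by 0.00 at 6 h, with a limma adjusted p of 0.673 and 1. Tnfrsf1a (4.55 to 4.69) and Cd27 (3.94 to 4.11) were too low to be tested on this array type.

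Counting both ligands and receptors, the arrays did not overlap for 0 members that were higher and 3 that were lower at 2 h (Lta, Tnf and Tnfrsf1b), beside 9.23% and 9.4% of all tested genes. At 6 h this held for 1 member that was higher (Ltb) and 1 that was lower (Lta), beside 11% and 10.3%. The gap of Tnfrsf1b at 2 h was very narrow: its highest Ikaros-ERt2 value was 6.157 and its lowest vector-ERt2 value 6.159. On this array type 6 of the 10 members had a value that 2 or more of the 9 arrays shared exactly, which makes some SDs very small. The same held for 63.7% of all probe sets with 1 symbol, and the Ltb SD of 0.02 in vector-ERt2 cells is such a case.

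**Figure D3:**
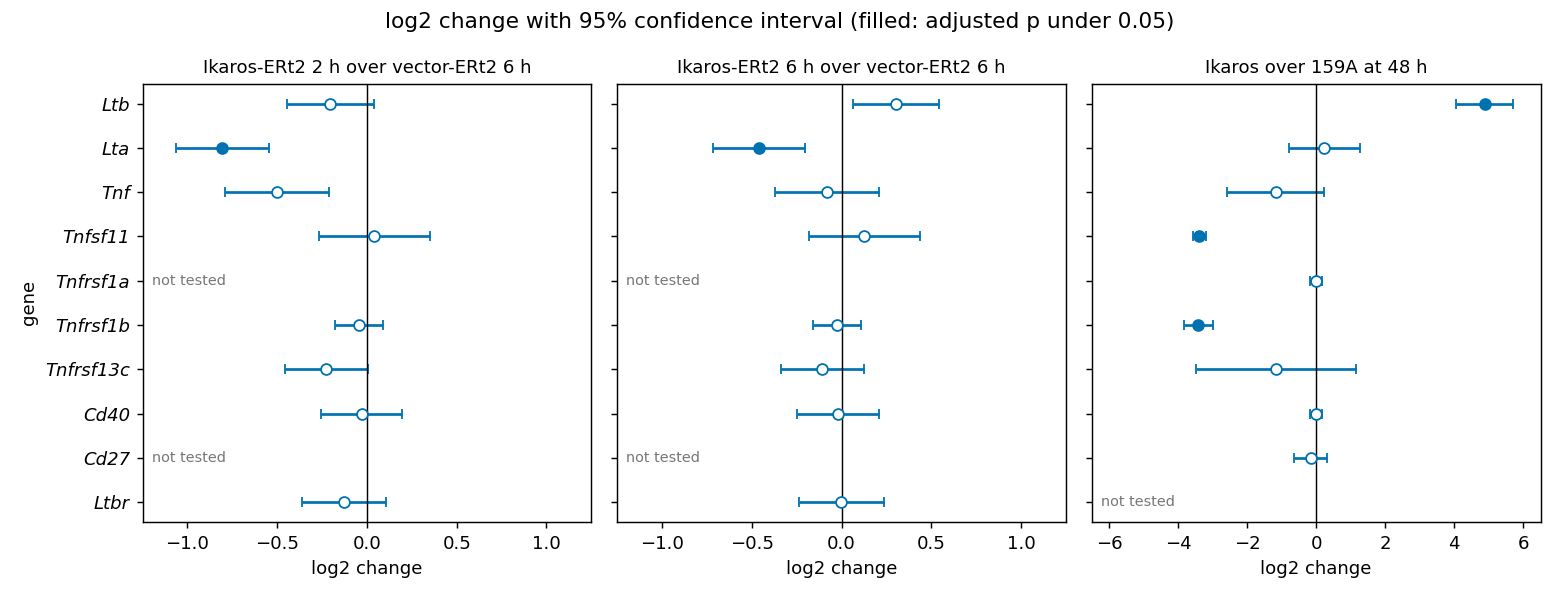
The log2 change of each tested member with its 95% confidence interval from limma (members below the filter are marked as not tested), in Ikaros-ERt2 cells over vector-ERt2 cells at 2 h and 6 h and with Ikaros over 159A at 48 h; filled points had an adjusted p under 0.05, and the 48 h panel spans a wider range. Lta (-0.81 and -0.46) is filled in the first panels, and Ltb (4.88), Tnfsf11 (-3.39) and Tnfrsf1b (-3.41) in the last.

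The neighbours of the lymphotoxin genes were read next, since Ltb, Tnf and Lta lie side by side in that order in the major histocompatibility region of chromosome 17. At 48 h, 9 of 12 listed neighbours were tested and 0 were called, with a median change of 0.19. Lst1, the gene next to Ltb, read 3.95 ± 0.30 with Ikaros and 5.10 ± 0.39 with 159A (SD, n = 2 each), a change of -1.15 (limma, adjusted p = 0.12). Nfkbil1, the gene next to Lta, had a change of -0.13 (adjusted p = 0.35). At 2 h and 6 h, 8 of the 12 were tested and 0 were called, with medians of -0.11 and -0.06. Around Cd27, Ltbr and Tnfrsf1a on chromosome 6, 9 of 12 listed neighbours were tested at 48 h, with a median of -0.74: Vamp1 rose by 1.89, and Nop2 (-1.65) and Gapdh (-1.01) were lower (limma, adjusted p = 0.0351, 0.0242 and 0.0254). With the mean over probe sets Vamp1 rose by 0.95 (adjusted p = 0.0364) and Gapdh missed the threshold (adjusted p = 0.126). In Ikaros-ERt2 cells 7 of these 12 were tested, with 0 called at 2 h (median -0.12) and 1 at 6 h (median -0.03), Nop2 at -0.55 (limma, adjusted p = 0.0115), a call lost without Ikaros-ERt2 6 h replicate 1 or vector-ERt2 replicate 1 or 3 (adjusted p = 0.0538, 0.0637 and 0.0564).

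**Figure D4:**
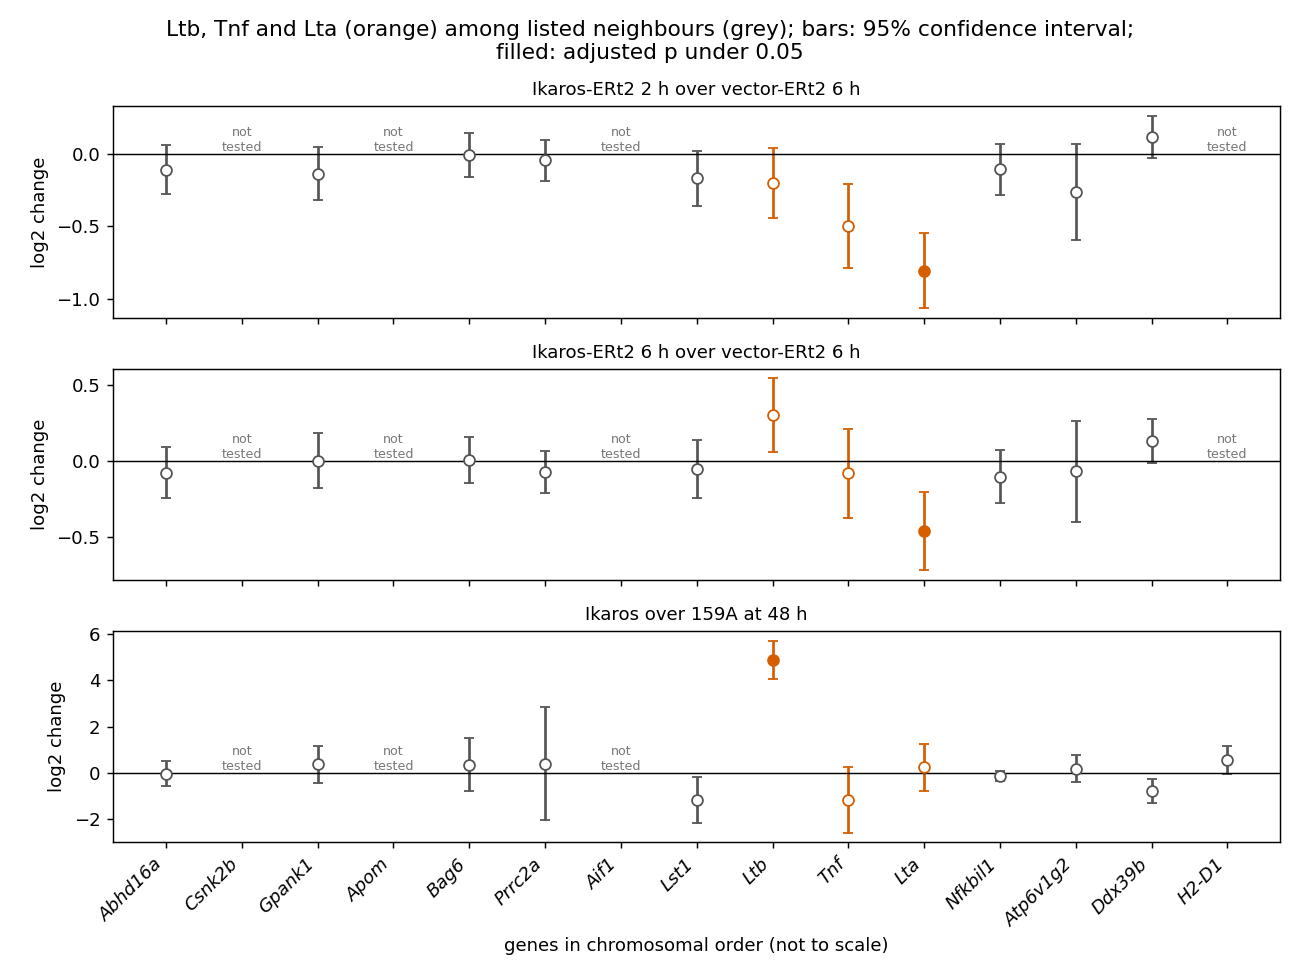
The log2 change with its 95% confidence interval for Ltb, Tnf and Lta (orange) and listed neighbours on chromosome 17 (grey), in chromosomal order and not to scale, for the comparisons at 2 h, 6 h and 48 h; filled points had an adjusted p under 0.05. The filled points are Lta in the first and second panels and Ltb in the third, and 0 neighbours are filled.

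Of 14 other ligands of the family, 5 were tested at 48 h and 0 were called (median -0.70), and 2 were tested in Ikaros-ERt2 cells and 0 were called at either time (medians 0.03 at 2 h and -0.02 at 6 h). Of 22 other receptors, 8 were tested at 48 h (median -0.14): Tnfrsf19 read 11.80 ± 0.18 with Ikaros and 10.85 ± 0.00 with 159A, a rise of 0.96 (limma, adjusted p = 0.0428) that was called in 4 of 13 alternatives and was 0.53 with the mean over its probe sets (adjusted p = 0.152). Eda2r, the receptor of ectodysplasin A2, was at least 8.51-fold lower with Ikaros (2.62 ± 0.00) than with 159A (6.28 ± 0.45; SD, n = 2 each; limma, adjusted p = 0.0262). In Ikaros-ERt2 cells 14 of the 22 were tested and 0 were called (medians -0.09 at 2 h and -0.08 at 6 h).

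Of 25 adaptors and proximal signalling genes downstream of the receptors, 21 were tested at 48 h, with a median of 0.56. Tnip1, which binds the ubiquitin editor A20, rose by 1.47, the deubiquitinase gene Cyld rose by 0.84, and Fadd, the adaptor of death receptors, fell by 0.98 (limma, adjusted p = 0.0292, 0.0304 and 0.0227). In Ikaros-ERt2 cells 1 of 21 was called at each time (medians -0.05 at 2 h and 0.03 at 6 h): Cflar, the gene of the caspase-8 regulator cFLIP, changed by -0.67 at 2 h and -0.63 at 6 h (limma, adjusted p = 0.0118 and 0.00671). The 2 h call was lost without Ikaros-ERt2 2 h replicate 1 (0.0653) and without vector-ERt2 replicate 1 (0.0653), 2 (0.0508) or 3 (0.0646).

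Of 11 NF-kB factors and inhibitors, 9 were tested at 48 h, with a median change of 1.06 beside 0 for all tested genes; 2 rose and 0 fell. Nfkbia, which encodes the inhibitor IkB alpha and is itself a known NF-kB target, read 14.41 ± 0.25 with Ikaros and 11.70 ± 0.11 with 159A (SD, n = 2 each), a rise of 2.71 or 6.53-fold (limma, adjusted p = 0.0235). Nfkbiz, an atypical nuclear IkB protein, rose by 1.42 (adjusted p = 0.0425), but its call was lost with the mean over its probe sets (0.63, adjusted p = 0.152) and with floor values raised (adjusted p = 0.055), and it held in 4 of 13 alternatives. In Ikaros-ERt2 cells 10 of the 11 were tested, with medians of -0.06 at 2 h and 0.01 at 6 h. Rel, the lymphoid NF-kB subunit c-Rel, read 7.55 ± 0.04 at 2 h, 7.69 ± 0.18 at 6 h and 6.84 ± 0.05 with the vector (SD, n = 3 each). It was higher than with the vector by 0.72 at 2 h and 0.85 at 6 h (limma, adjusted p = 0.00268 and 4.73e-04). Both calls were made in 18 of 18 alternatives. Nfkb2, the p100 precursor of the alternative pathway, was lower at 6 h than with the vector, with a change of -0.33 (limma, adjusted p = 0.0253). It was the 1 gene of the list called lower. That call was lost without Ikaros-ERt2 6 h replicate 1 (0.0584) or 2 (0.0689), without vector-ERt2 replicate 1 (0.0909) or 3 (0.0935), and with only the 2 groups in the fit (0.0509).

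By a fixed rule, the 5 genes whose values over the 9 Gene 1.0 ST arrays ran most like those of Lta were Sla (Pearson r = 0.973), Acsbg1 (0.960), Insm1 (0.945), Upk3a (0.926) and Slc37a4 (0.924). These are the highest values among all tested genes, the arrays fall into 3 groups that already differ for Lta, and the r describes the arrays only. Sla encodes an adaptor that dampens antigen receptor signalling, and its changes were -0.60 at 2 h and -0.39 at 6 h.

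Of 9 pre-B and B lineage markers, 7 had a probe set on the 430 2.0 array and all 7 stood above the filter level, with a mean of 11.85 to 12.03 per Ikaros array and 12.10 to 12.17 per 159A array; on Gene 1.0 ST 7 of 8 did, with a mean of 9.47 to 9.52 at 2 h, 9.30 to 9.38 at 6 h and 9.64 to 9.72 with the vector. These means join genes that moved in opposite directions: at 48 h 3 of 7 rose and 2 of 7 fell, among them Rag1 (3.37), Igll1 (-5.92; -2.96 with the mean over its probe sets) and Vpreb1 (-3.92; limma, adjusted p = 0.018, 0.018 and 0.0313). Of 7 tested on Gene 1.0 ST, 3 were called lower at 6 h than with the vector. These were the surrogate light chain genes Vpreb1 (-1.17), Igll1 (-1.07) and Vpreb2 (-0.79). The adjusted p-values were 3e-04, 7.76e-04 and 0.00154 (limma), and each was called in 18 of 18 alternatives. At 2 h 1 was called lower than with the vector, Vpreb1, by -0.52 (limma, adjusted p = 0.0389). For 6 h over 2 h, 2 were higher and 3 lower. The 2 h call was lost without any 1 of the Ikaros-ERt2 2 h arrays (0.0671 to 0.132), without any 1 vector-ERt2 array (0.0827 to 0.154) and without Ikaros-ERt2 6 h replicate 1 (0.0575), and held in 8 of 18 alternatives. Without the filter, Vpreb1 (adjusted p = 0.101) and Rag1 (adjusted p = 0.0502) missed the threshold at 48 h and Igll1 did not (limma, adjusted p = 0.0494). The part of these changes in those of the members was not tested.

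At 48 h, T-cell markers averaged 3.28 to 3.55 per Ikaros array and 3.79 to 3.84 per 159A array, and 0 of the 3 tested were called. Cd28 read 7.66 ± 0.87 with Ikaros and 10.36 ± 0.33 with 159A (SD, n = 2 each; limma, adjusted p = 0.0836), Cd8a averaged 3.62 and 3.43 and Cd4 2.60 and 2.49 in the same order, and Cd3e and Cd3g were at 2.19 in both groups. Natural killer markers averaged 4.44 to 4.77 with Ikaros and 3.00 to 3.33 with 159A: 1 of 3 moved, Klrd1, by 4.31 (limma, adjusted p = 0.0477, and 0.0637 with floor values raised), with Ncr1 and Gzma at 2.19 in both groups. Plasma cell markers averaged 4.17 to 4.23 with Ikaros and 2.27 to 2.41 with 159A: 1 of 3 moved, Jchain, which was at least 32.1-fold higher with Ikaros (limma, adjusted p = 0.018), with Prdm1 at 2.19 and Sdc1 at 2.21 in both groups. Myeloid markers averaged 2.34 with Ikaros and 2.33 with 159A, and stromal markers 2.21 to 2.24 and 2.21. On Gene 1.0 ST, the stromal markers Col1a1, Col1a2 and Col3a1 and the T-cell markers Cd28 and Cd3e stood above the filter level in all groups. None of them was called at 2 h or 6 h. Cd8a stood above it in vector-ERt2 cells only and Sdc1 in Ikaros-ERt2 cells at 6 h only. No natural killer or myeloid marker did on that array. At 48 h without the filter on low genes, Klrd1 and Jchain missed the threshold (limma, adjusted p = 0.148 and 0.0508). The part of Klrd1 and Jchain in the rise of Ltb was not tested.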

How the data were processed

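RNA of the pre-B line B3 was measured on 13 Affymetrix arrays, 4 of the 430 2.0 type and 9 of Gene 1.0 ST. The authors deposited log2 values, 1 for each probe set on each array. Tools listed in the submitters' processing notes are RMA, GCRMA, limma and affy, without versions or roles; the genome build is not given in the sources used here. The array types were normalized separately and never combined.

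Gene names came from the platform annotation. On 430 2.0 it gave 1 symbol to 34958 probe sets, several to 932 and none here to 9211; on Gene 1.0 ST the numbers were 21789, 1621 and 12146. Checking gene numbers against RefSeq changed 0 symbols. The probe set with the highest mean stood for a gene, the lowest 40% of genes on that scale went untested, and 10916 and 11963 of 18194 and 19938 genes remained. Groups came from the sample titles.

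Changes were tested with limma 3.58.1 (lmFit and eBayes) in R 4.3.3, two-sided, with Benjamini-Hochberg adjustment over all tested genes of a comparison. There were 4 comparisons: Ikaros over 159A at 48 h, and from 1 fit of 9 arrays, Ikaros-ERt2 at 2 h and at 6 h over vector-ERt2 and at 6 h over 2 h. The fit was tested on simulated data. The genes named were the 10 members with every probe set, Ikzf1, up to 3 called genes with the largest change and no overlap of arrays per other list and comparison, and the 5 genes most like the member with the smallest p at 6 h. Lst1, Nfkbil1 and the T-cell and floor-level marker genes were named in addition, after their values were seen. Members and lists were chosen with earlier results of these data known. Alternatives covered the filter, normalization, the choice of probe set, the variance model, the arrays in the fit, a replicate block and leaving out each array. The floor alternative and centring on the tested genes were chosen after seeing the data.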

Additional observations from a re-analysis of the deposited data

How the results depend on the processing

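The number of arrays limits the precision, and near the floor changes have no exact size. At 48 h, 1621 genes were called, against 185 without the filter, 95 with every probe set tested, 2437 with arrays centred on the median of the tested genes (which moved the median of all tested genes by 0.11, and was chosen after seeing the data), 0 with a replicate block and 0 to 0 without 1 array; 3 members were called, against 1 without the filter, 1 with every probe set, 0 with the block and 0 to 0 without 1 array. At 2 h, 223 genes became 141 without the filter, 135 with arrays centred on their median, 141 with every probe set and 82 to 269 without 1 array, and the 1 member call stayed at 1 to 1. At 6 h, 692 genes became 459 when centred and 335 to 714 without 1 array, and 1 member call became 0 without the filter, with every probe set or with only the 2 groups in the fit, and 0 to 1 without 1 array. For 6 h over 2 h, 108 genes became 59 without the filter, 175 after quantile normalization, 32 when centred, 56 with every probe set, 0 with only the 2 groups (1301 at an unadjusted p under 0.05) and 9 to 149 without 1 array; 0 member calls became 0 to 1. Centring on the tested genes moved the share of higher genes among these calls to 27.8%, beside 41.7%, and leaving out 1 array to 20.8% to 57.9%; for 6 h over vector that share was 30.4% to 55.5% without 1 array, beside 44.7%. The cause of these shifts was not tested.

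Replicates of the groups share only a number, not a stated culture. After each gene's group mean was subtracted, the Pearson r over genes was 0.57 between same-numbered 48 h arrays. With 2 arrays a group this is 1 observation, since the other pairing has r = -0.57 by construction. Same-numbered Gene 1.0 ST arrays of different groups had r from -0.26 to 0.24, and differently numbered ones from -0.25 to 0.34. With the replicate block the adjusted p was 0.0559 for Ltb, 0.0554 for Tnfsf11 and 0.0554 for Tnfrsf1b at 48 h, and for Lta 0.0056 at 2 h and 0.0379 at 6 h. Although the block left 0 genes called at 48 h, 4493 had an unadjusted limma p under 0.05, beside 3674 in the main fit.

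Reversals touched members that were not called in either setting. Quantile normalization turned Cd40 at 48 h (-0.00286), Ltbr at 6 h (0.00785), and Tnfrsf1b (-0.00196) and Cd40 (-0.00423) at 6 h over 2 h; centring turned Ltbr at 6 h (0.00368) and Cd40 at 6 h over 2 h (-0.00454, and -0.00642 on the tested genes). Leaving out 1 array gave ranges that crossed 0: Lta at 48 h -0.093 to 0.58; at 2 h Tnfsf11 -0.10 to 0.15 and Cd40 -0.11 to 0.10; at 6 h Tnf -0.18 to 0.0306, Ltbr -0.10 to 0.0679, Cd40 -0.0409 to 0.0227, Tnfsf11 -0.0205 to 0.21 and Tnfrsf1b -0.0381 to 0.00186; at 6 h over 2 h Cd40 -0.12 to 0.0936 and Tnfsf11 -0.0623 to 0.23.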
